A study of Mus musculus with 15 samples.

Results

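Described here are 6 major urinary protein genes, *Mup3*, *Mup4*, *Mup5*, *Mup18*, *Mup20* and *Mup21*, in the livers of mice with and without estrogen receptor alpha. They were taken by symbol as the *Mup* genes apart from a central block of near-identical copies, and they are 6 of the 22 genes with the symbol *Mup* and a number and 6 of the 55573 genes in the count table. Livers came from 3 WT females (FWT), 3 WT males (MWT), 5 homozygous ESR1KO females (FKO) and 4 homozygous ESR1KO males (MKO), all 8 weeks old and of the strain B6N(Cg)-Esr1tm4.2Ksk/J, with 1 rRNA-depleted RNA-seq library per mouse. ESR1KO mice were bred from heterozygous parents and compared with WT littermates. They lack exon 3 of *Esr1* in every tissue, are infertile and have elevated testosterone in both sexes, so effects of the missing receptor in hepatocytes and of the altered hormones cannot be told apart.

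Major urinary proteins are small secreted lipocalins, barrel-shaped carriers of hydrophobic molecules. The liver releases them into the blood, from where they pass into urine and carry volatile pheromones or act as pheromones themselves. Adult males make more of them than females, under the control of growth hormone, which is secreted in pulses in males and more evenly in females, together with androgens, thyroid hormone and glucocorticoids. *Mup20* encodes darcin, the male urinary protein that attracts females. *Mup4* and *Mup5* are better known from nasal, lacrimal and salivary tissue than from liver.

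All 6 genes lie in the *Mup* cluster on the minus strand of chromosome 4 (GRCm38, annotation GENCODE M21) and code for proteins. *Mup4* (ENSMUSG00000041333) is at chr4:59956804-59960710, the end of the cluster with the lowest coordinates. *Mup18* (ENSMUSG00000078674) is at chr4:61670177-61674136 and *Mup5* (ENSMUSG00000058523) at chr4:61831319-61835233. *Mup20* (ENSMUSG00000078672) is at chr4:62050234-62054158, *Mup3* (ENSMUSG00000066154) at chr4:62083476-62087342 and *Mup21* (ENSMUSG00000066153) at chr4:62147932-62150863. *Mup21* has 6 exons and the others have 7. None of the 6 shares exon bases with another annotated gene.

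Sequence decides how well the reads of these genes can be told apart, so a stretch of 60 coding bases is shown for each, aligned to bases 158 to 217 of the coding sequence of *Mup11*, a central copy. Sequences are from the GENCODE M21 transcripts, written 5′ to 3′, and capitals mark bases that differ from *Mup11*.
Mup11: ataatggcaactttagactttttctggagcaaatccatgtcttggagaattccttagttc
Mup18: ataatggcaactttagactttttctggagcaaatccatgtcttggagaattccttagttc
Mup20: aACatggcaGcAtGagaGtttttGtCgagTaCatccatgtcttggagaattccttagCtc
Mup4: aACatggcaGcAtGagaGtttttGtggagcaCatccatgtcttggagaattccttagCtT
Mup5: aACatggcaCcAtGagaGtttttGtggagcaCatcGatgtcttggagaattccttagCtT
Mup3: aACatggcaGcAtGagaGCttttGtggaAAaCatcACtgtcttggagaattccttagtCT
Mup21: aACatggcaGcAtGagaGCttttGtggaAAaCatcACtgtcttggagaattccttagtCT
*Mup3* and *Mup21* differed from *Mup11* at 15 of the 60 bases, *Mup5* and *Mup20* at 11, and *Mup4* at 10. *Mup18* differed at 0. The stretch was picked for its differences, so these counts do not stand for the whole coding sequence. There *Mup3* was 83.6% and *Mup20* 91.34% identical to *Mup11*. The stretch of *Mup3* is letter for letter that of *Mup21*, and over their whole coding sequences these genes were 94.75% identical.

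The name divergent holds for 5 of the 6 genes. The median coding identity to the 16 other *Mup* genes was 82.9% for *Mup3*, 84.2% for *Mup21*, 88.7% for *Mup4*, 90.2% for *Mup5* and 90.6% for *Mup20*. For *Mup18* it was 98.9%, and its coding sequence was 99.82% identical to that of *Mup11*. Of all 100-base windows in the transcript, 12.88% of those of *Mup18* occurred in no other gene, against 97.06% for *Mup3*, 100% for *Mup4*, 98.67% for *Mup5* and 95.5% for *Mup21*. For *Mup20* the share was 61.16%, since 38.84% of its windows are shared with the pseudogene *Mup-ps19*. That pseudogene had 0 to 21 counts per group, against 2751 to 353174 counts for *Mup20*. How the authors treated reads that map to several places is not stated, so the counts of *Mup18* carry an uncertainty that those of the other 5 genes hold to a smaller extent. One of the 16 other genes, *Mup6*, is also distinct in sequence, with all of its windows unique.

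**Figure D1:**
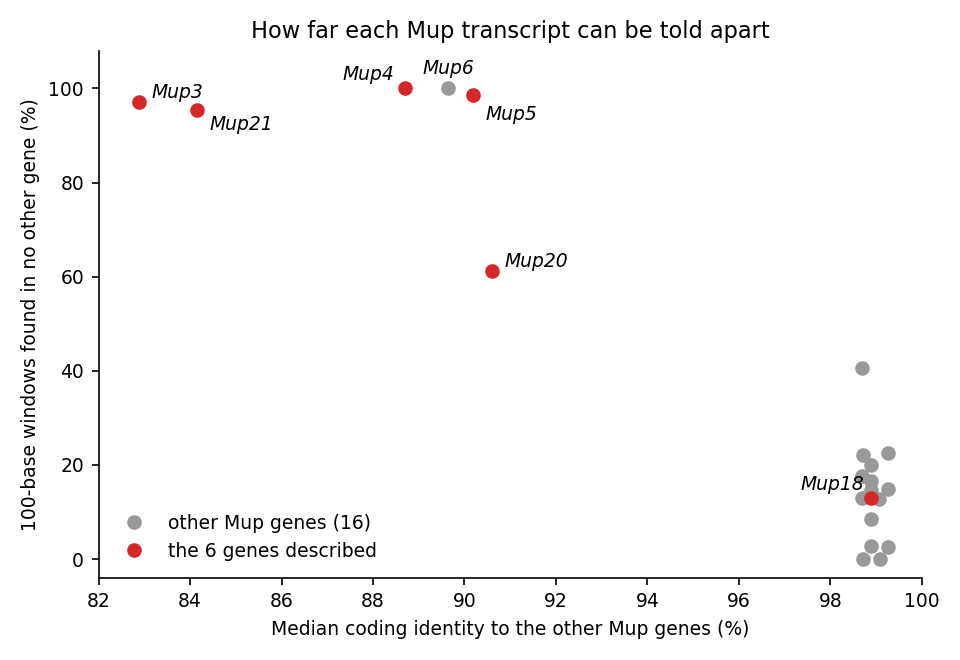
Each point is 1 of the 22 *Mup* genes, placed by its median coding identity to the 16 other *Mup* genes (x axis, percent) and by the percent of 100-base windows of its transcript found in no other gene (y axis). The 6 genes described are red and the others grey; *Mup18* sits among the grey points at 98.9% identity and 12.88% unique windows.

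Promoter sequence was available in the RefSeq table (GRCm38.p6, 250 bases before to 50 after the start) for 4 of the 6 genes, and for 10 of the other *Mup* genes. The 100 bases that end in TATATAA, the letters of a TATA box, are shown for those 4, because 3 of them are expressed genes that differed in sex bias. Capitals mark those letters, and all are on the minus strand. The last base lies 5 bases before the RefSeq start for *Mup3*, 2 for *Mup21*, 23 for *Mup4* and 22 for *Mup18*. By the GENCODE M21 coordinates given above, the letters lie inside all 4 genes, so the RefSeq and GENCODE starts differ. Whether the letters act as a TATA box was not tested.
Mup3, chr4:62087322-62087421: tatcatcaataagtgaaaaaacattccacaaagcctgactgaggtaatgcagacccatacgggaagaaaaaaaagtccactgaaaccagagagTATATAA
Mup21, chr4:62150843-62150942: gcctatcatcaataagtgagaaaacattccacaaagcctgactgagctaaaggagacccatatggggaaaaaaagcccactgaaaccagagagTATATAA
Mup4, chr4:59960690-59960789: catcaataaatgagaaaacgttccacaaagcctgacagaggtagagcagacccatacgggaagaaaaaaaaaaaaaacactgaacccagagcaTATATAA
Mup18, chr4:61674116-61674215: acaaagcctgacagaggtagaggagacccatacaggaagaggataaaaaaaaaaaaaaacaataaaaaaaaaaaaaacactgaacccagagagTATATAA
Both strands were searched for TATATAA, for TTCNNNGAA, the palindrome that STAT5 binds, and for AATCAAT, which holds the core bound by the Onecut and Cux families. The motifs were chosen after the sequences had been seen, and no matches overlapped in these 4 promoters. TATATAA was found in 4 of 4 promoters of these genes and in 9 of 10 of the other *Mup* promoters, against 3.242% of 32851 mouse promoters of the same length. AATCAAT was found in 4 of 4 and in 10 of 10, against 2.855%. TTCNNNGAA was found in 0 of 4 and 0 of 10, against 8.298%, which says only that these letters are not in this window.

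Total counts were between 27799061 and 78624766 per library. Replicates differed by far more than sampling noise, with a chi-square per gene of at least 26.1 between any pair. *Esr1*, whose exon 3 is deleted, lay between 74.7 and 88.2 CPM (counts scaled to the size of the library) in FWT and between 9.67 and 19.7 in FKO, and at most 52.0 in MWT and 8.22 to 16.1 in MKO. Every library of a knockout group was below every WT library of the same sex. Library sizes were adjusted by TMM factors. All 6 hepatocyte markers were expressed in every group. Their summed level was 74640 to 76424 CPM in MWT, below all other libraries, 86560 to 96253 in MKO, 81545 to 106340 in FKO and 101160 to 107870 in FWT. *Alb* made up most of this sum, at 54550 CPM in MWT and 86414 in FWT on average. By group means *Tat* was also lower in MWT than in FWT, whereas *Apoa1* (6548 against 4206 CPM), *Ttr* (5168 against 4053), *Cps1* and *Hnf4a* were higher in MWT. By edgeR 0 of 6 passed an adjusted p of 0.05 in either genotype comparison, and 2 of 6 had an unadjusted p under 0.05 in each. Over all tested genes 5.71% passed the adjusted p in FKO against FWT and 1.42% in MKO against MWT. *Alb* passed in FWT against MWT (log2 fold change 0.66, edgeR adjusted p = 0.0383). Markers of exocrine pancreas, kidney and adipocytes summed to at most 1.01 CPM in any library. Of 19 tested markers of other cell types, 2 markers of bile duct cells passed in MKO against MWT, *Krt19* with a log2 fold change of 1.23 and *Epcam* with 0.95 (edgeR adjusted p = 0.0307 and 0.0300), while all bile duct markers summed to 3.12 to 5.50 CPM per library; their part in the results was not tested. In the same list *Epcam* also passed in FWT against MWT (1.08), FKO against MWT (0.87) and the interaction (-1.17), *Sox9* in FWT against MWT (-1.03), and the Kupffer cell marker *Vsig4* in FKO against MKO (0.61) and FKO against MWT (0.48). In FKO against FWT 0 of 19 passed by edgeR, and 1 of 19 had an unadjusted p under 0.05. In bulk liver, fewer cells that make a transcript and less transcript per cell cannot be told apart.

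*Mup20*, the darcin gene, had the widest gap between the WT sexes among these 6 genes. WT females had 21.9, 17.5 and 16.6 CPM and WT males 3090, 2577 and 1944 CPM. ESR1KO females had 695, 550, 322, 506 and 407 CPM, and ESR1KO males 745, 1115, 629 and 1037 CPM. All 9 ESR1KO mice, of either sex, lay between the highest WT female and the lowest WT male. The ranges of the ESR1KO sexes overlapped. The group means were 18.6 ± 2.84 CPM in FWT, 2537 ± 574 in MWT, 496 ± 142 in FKO and 882 ± 232 in MKO (SD, n = 3, 3, 5 and 4).

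*Mup21* followed the same order of groups at a lower level. WT females had 4.27, 5.88 and 4.72 CPM, and WT males 321, 258 and 320 CPM. ESR1KO females had 134, 119, 103, 54.3 and 103 CPM, and ESR1KO males 125, 177, 80.9 and 145 CPM. As for *Mup20*, both ESR1KO groups lay between the WT sexes without touching either, and overlapped each other. The means were 4.96 ± 0.832 CPM in FWT, 299.7 ± 35.7 in MWT, 103 ± 29.9 in FKO and 132 ± 40.1 in MKO (SD, n = 3, 3, 5 and 4).

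*Mup3* was high in every group. WT females had 2263, 3805 and 3733 CPM and WT males 9299, 7756 and 7847 CPM. ESR1KO females had 12027, 7983, 5784, 6500 and 7067 CPM, and ESR1KO males 5817, 6059, 5954 and 6450 CPM. WT females were below all other libraries, and the first ESR1KO female had the highest level of all 15. The means were 3267 ± 870 CPM in FWT, 8301 ± 866 in MWT, 7872 ± 2458 in FKO and 6070 ± 272 in MKO (SD, n = 3, 3, 5 and 4).

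*Mup18* had another order of groups. WT males had 170, 35.8 and 164 CPM, so that replicate 2 was far below the other WT males. WT females had 18.6, 9.54 and 21.9 CPM. ESR1KO females had 3.30, 3.34, 1.36, 5.02 and 2.26 CPM, and ESR1KO males 5.78, 14.5, 15.3 and 4.92 CPM. Every ESR1KO female was below every WT female, the opposite direction to *Mup20*, *Mup21* and *Mup3*. MWT replicate 2 was also the lowest of the WT males in 16 of the 16 other *Mup* genes. The same held for *Mup3* and *Mup21*, whereas for *Mup20* replicate 3 was the lowest.

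*Mup4* and *Mup5* were at the limit of detection. *Mup4* had 0, 0 and 1 counts in FWT, 2, 1 and 1 in MWT, 1, 0, 0, 2 and 6 in FKO, and 1, 0, 4 and 3 in MKO, and all groups overlapped. *Mup5* had 2, 0 and 2 counts in FWT, 5, 5 and 7 in MWT, 0 in each of the 5 FKO libraries, and 1, 2, 1 and 1 in MKO. Summed over groups, *Mup5* had 17 counts in MWT (exact 95% Poisson interval 9.90 to 27.2) and 0 in FKO. Scaled to library totals, the 17 counts in MWT were 8.99 times a limit of 3 counts over the FKO group. That ratio takes the 17 counts as exact and leaves out their interval, so it is not a lower bound on the difference. Such intervals and limits speak of counting error and of nothing else. Neither gene passed the filter on low counts, and so they were not tested in the main model.

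**Figure D2:**
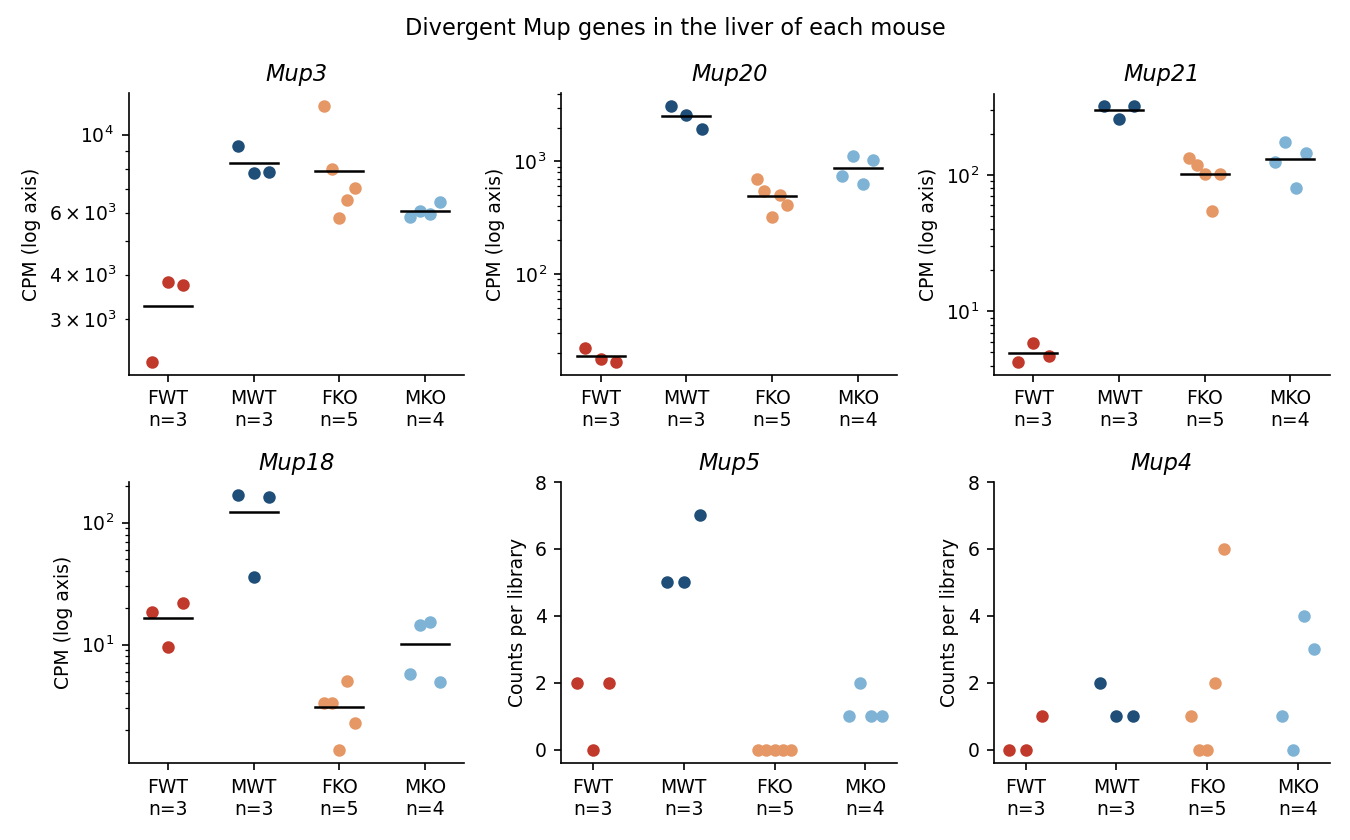
Each point is 1 mouse; the panels of *Mup3*, *Mup20*, *Mup21* and *Mup18* show CPM on a log axis with the group mean as a black line, and the panels of *Mup5* and *Mup4* show counts per library on a linear axis. For *Mup20* and *Mup21* both ESR1KO groups lie between the WT sexes, for *Mup18* the 5 FKO mice lie below all WT mice and overlap with MKO, and *Mup5* has 0 counts in all 5 FKO mice.

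Levels per kilobase of exon adjust for length, but not for how much of a transcript is unique. The order in WT males was *Mup3* (7772 CPM per kb), *Mup20* (2734), *Mup21* (443), *Mup18* (132), *Mup5* (0.129) and *Mup4* (0.0324). Of the 100-base windows, 12.88% were unique for *Mup18*, against 61.16% for *Mup20*, 95.5% for *Mup21* and 97.06% for *Mup3*. The place of *Mup18* is thus uncertain, here and in WT females. In WT females *Mup3* again led, with 3059 CPM per kb, ahead of *Mup20* with 20.1, *Mup18* with 17.9 and *Mup21* with 7.32. *Mup20* and *Mup18* are neighbours in that order whose ranges overlapped before scaling by length. The ratio of *Mup3* to *Mup20*, both per kb, was 152 in FWT, 13.8 in FKO, 5.98 in MKO and 2.84 in MWT. *Mup3* thus stood far above *Mup20* in females with the receptor, and within a few fold of it in males with the receptor.

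Differences between groups were tested with edgeR's quasi-likelihood F test on all 15 libraries, adjusted by Benjamini-Hochberg over 17655 genes. Calls required an adjusted p below 0.05 together with a log2 fold change of 1.5 or more in either direction. Of the 6 genes, 4 passed the filter on low counts. The comparisons share groups, so each is given with its own values.

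The first comparison asked how far these genes differ between the sexes in WT liver. Of the 4 genes tested, 3 were called in FWT against MWT, all lower in females, where 1.81% of all tested genes were called. *Mup20* was 136-fold lower in females (log2 fold change -7.09 ± 0.34 SE, edgeR adjusted p = 6.53e-10). *Mup21* was 60.6-fold lower (-5.92 ± 0.34, edgeR adjusted p = 6.23e-09) and *Mup18* 7.38-fold lower (-2.88 ± 0.57, edgeR adjusted p = 0.00498). *Mup3* was 2.54-fold lower, at -1.35 ± 0.25 (edgeR adjusted p = 0.00294), a difference below the fold minimum. With the adjusted p alone 4 of 4 passed, against 4.87% of all genes. The median over the 4 genes was -4.40, against 0.01 over all genes, and over the 16 other *Mup* genes it was -3.88, with 13 of 16 called lower in females.

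ESR1KO females had higher levels of *Mup20*, *Mup21* and *Mup3* and a lower level of *Mup18* than WT females. In FKO against FWT, 3 of the 4 genes were called, against 1.2% of all genes. *Mup20* was 26.6-fold higher (log2 4.73 ± 0.30, edgeR adjusted p = 3.22e-08) and *Mup21* 20.7-fold higher (4.37 ± 0.31, edgeR adjusted p = 1.51e-07). *Mup18* was 5.45-fold lower (-2.45 ± 0.49, edgeR adjusted p = 0.00770). *Mup3* was 2.41-fold higher, at 1.27 ± 0.23 (edgeR adjusted p = 0.00341), again below the fold minimum. With the adjusted p alone 4 of 4 passed, against 5.71% of all genes. Among the 16 other *Mup* genes 5 were called higher and 0 passed lower, and the median of the 4 genes was 2.82 against 0.70 for the other 16. *Mup18* was the one of the 20 tested *Mup* genes that passed as lower, but the fitted values of some near copies had the same sign without passing: *Mup15* had a value 3.15-fold lower (edgeR adjusted p = 0.165), *Mup17* 2.82-fold lower (edgeR adjusted p = 0.185) and *Mup16* 1.71-fold lower (edgeR adjusted p = 0.270). *Mup10* was 1.59-fold lower (edgeR adjusted p = 0.1145), *Mup19* 1.31-fold (edgeR adjusted p = 0.503) and *Mup22* 1.10-fold (edgeR adjusted p = 0.668). The rest of the 16 other *Mup* genes had higher fitted values. No test compared *Mup18* with any of these genes. With the replicate number as a block, *Mup18* in this comparison was at -2.20 with an edgeR adjusted p of 0.0520.

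ESR1KO males had lower levels of *Mup18*, *Mup20* and *Mup21* than WT males, whereas *Mup3* did not pass the test. In MKO against MWT, 2 of the 4 genes were called, both lower, against 0.578% of all genes. *Mup18* was 12.1-fold lower (log2 -3.60 ± 0.52, edgeR adjusted p = 0.00190) and *Mup20* 2.88-fold lower (-1.53 ± 0.25, edgeR adjusted p = 0.00424). *Mup20* lies at the fold minimum, and it lost its call when MWT replicate 1, MKO replicate 1 or MKO replicate 3 was left out, at log2 fold changes of -1.36, -1.46 and -1.39. *Mup21* was 2.28-fold lower, at -1.19 ± 0.26 (edgeR adjusted p = 0.0271), and *Mup3* had -0.45 ± 0.23 (edgeR adjusted p = 0.461; 95% interval -0.93 to 0.03). With the adjusted p alone 3 of 4 passed, against 1.42%. Of the 16 other *Mup* genes 12 were called lower, with a median of -2.57. *Mup18* without MWT replicate 2 was at -4.04.

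**Figure D3:**
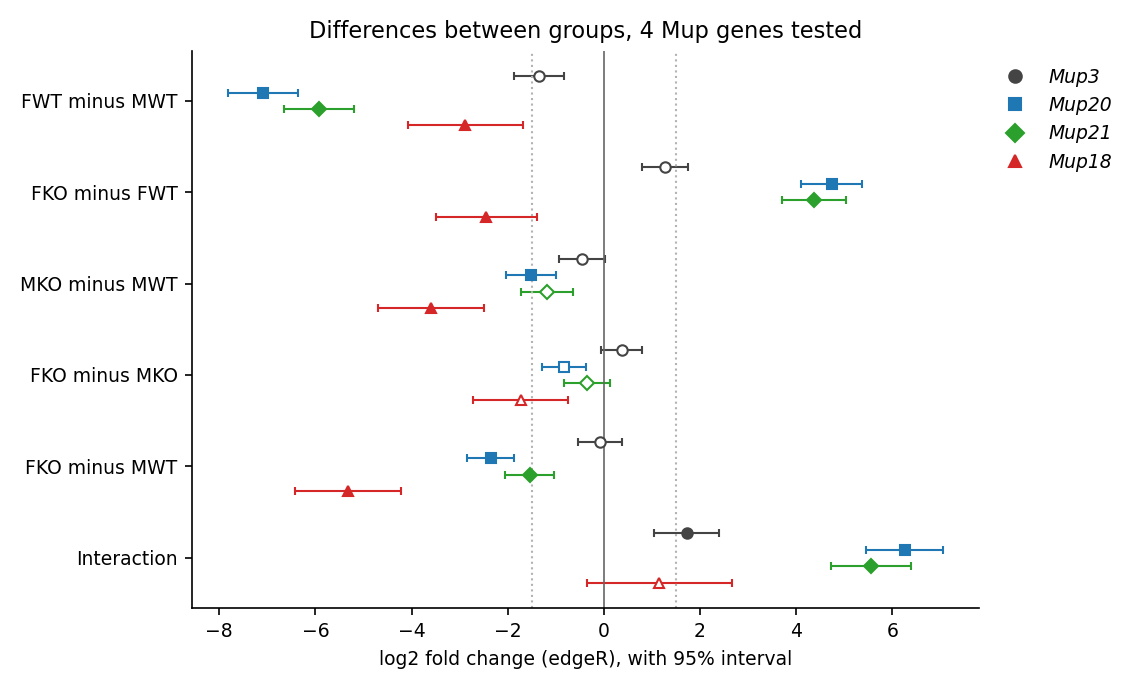
Log2 fold changes (x axis, edgeR) of the 4 tested genes in each comparison (y axis), with 95% intervals; filled symbols are called, open symbols are not, and dotted lines mark the fold minimum of 1.5. From females to males the ESR1KO effect on *Mup20* changed from 4.73 to -1.53 and that on *Mup21* from 4.37 to -1.19, whereas *Mup18* was lower in both sexes, at -2.45 and -3.60.

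The ESR1KO effect differed between the sexes for 3 of the 4 genes, tested as an interaction, against 1.09% of all genes called. Subtracting the male from the female log2 effect left 6.26 ± 0.38 for *Mup20* (edgeR adjusted p = 1.15e-07), 5.56 ± 0.39 for *Mup21* (edgeR adjusted p = 3.13e-07) and 1.72 ± 0.32 for *Mup3* (edgeR adjusted p = 0.00646). For *Mup18* it was 1.15 ± 0.71 (edgeR adjusted p = 0.469), with a 95% interval of -0.36 to 2.66. The count with the adjusted p alone was also 3 of 4, against 1.94%. This test shares its WT groups with the sex comparison above.

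Between the ESR1KO sexes 0 of the 4 genes were called, against 0.142% of all genes, and 0 of 4 passed the adjusted p alone, against 0.272%. At an unadjusted p, edgeR called 1, *Mup18*, where 87 of 17655 genes were called. *Mup20* had an unadjusted edgeR p of 0.00139 but lay under the fold minimum. DESeq2's Wald test called *Mup18* (adjusted p = 0.0428), where 37 of 33253 genes were called. *Mup20* in FKO minus MKO was at -0.83 ± 0.22 (edgeR adjusted p = 0.104, 95% interval -1.29 to -0.37). *Mup21* was at -0.36 ± 0.23 (edgeR adjusted p = 0.411, interval -0.84 to 0.12), and *Mup3* at 0.38 ± 0.20 (edgeR adjusted p = 0.344, interval -0.05 to 0.80). *Mup18* was at -1.73 ± 0.47 (edgeR adjusted p = 0.111, interval -2.73 to -0.74). These intervals do not show that the ESR1KO sexes were alike.

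Against WT males, ESR1KO females remained lower in 3 of the 4 genes, where 0.816% of all genes were called. *Mup18* was 40.2-fold lower (log2 -5.33 ± 0.52, edgeR adjusted p = 1.11e-05), *Mup20* 5.12-fold lower (-2.35 ± 0.23, edgeR adjusted p = 1.25e-05) and *Mup21* 2.92-fold lower (-1.55 ± 0.24, edgeR adjusted p = 0.00150). *Mup21* is near the fold minimum and fell under it without FKO replicate 4 (-1.39) and, by a narrow margin, without MWT replicate 1 or MWT replicate 3. *Mup3* was at -0.08 ± 0.22 (edgeR adjusted p = 0.882, interval -0.54 to 0.38), and its 5 FKO values spanned those of WT males. The adjusted p alone also passed 3 of 4, against 2.61%. In a fit without the filter, *Mup5* was called too, with an edgeR adjusted p of 0.00175, on counts of 0 in FKO.

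Placed on a log2 CPM scale from the mean of WT females (0) to the mean of WT males (1), ESR1KO females lay at 0.66 ± 0.06 for *Mup20*, at 0.73 ± 0.09 for *Mup21* and at 0.91 ± 0.29 for *Mup3* (SD, n = 5). ESR1KO males lay at 0.78 ± 0.06, 0.79 ± 0.08 and 0.68 ± 0.05 in the same order (SD, n = 4). For *Mup18* both groups lay outside the range, at -0.93 ± 0.26 and -0.30 ± 0.32.

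Because *Mup18* and the central copies share most of their sequence, their counts were also pooled into 1 feature of 17 genes, an alternative added after the data had been seen. In FWT against MWT the pool was at -4.67 ± 0.42 (edgeR adjusted p = 1.53e-06) and in MKO against MWT at -3.30 ± 0.35 (edgeR adjusted p = 0.000132), the direction of *Mup18* alone. In FKO against FWT it was at 0.80 ± 0.33 (edgeR adjusted p = 0.167), where *Mup18* alone was at -2.45. The interaction was 4.10 ± 0.49 for the pool (edgeR adjusted p = 0.000105) and 1.15 ± 0.71 for *Mup18* alone. The pool is mostly the other genes, at 156 to 293 CPM in FWT and 219 to 714 in FKO against at most 21.9 and 5.02 CPM for *Mup18*, and it includes *Mup6*, which is distinct in sequence. Its direction is thus that of the abundant copies and does not test the direction of *Mup18*. How reads were divided between *Mup18* and its near copies was not tested.

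**Figure D4:**
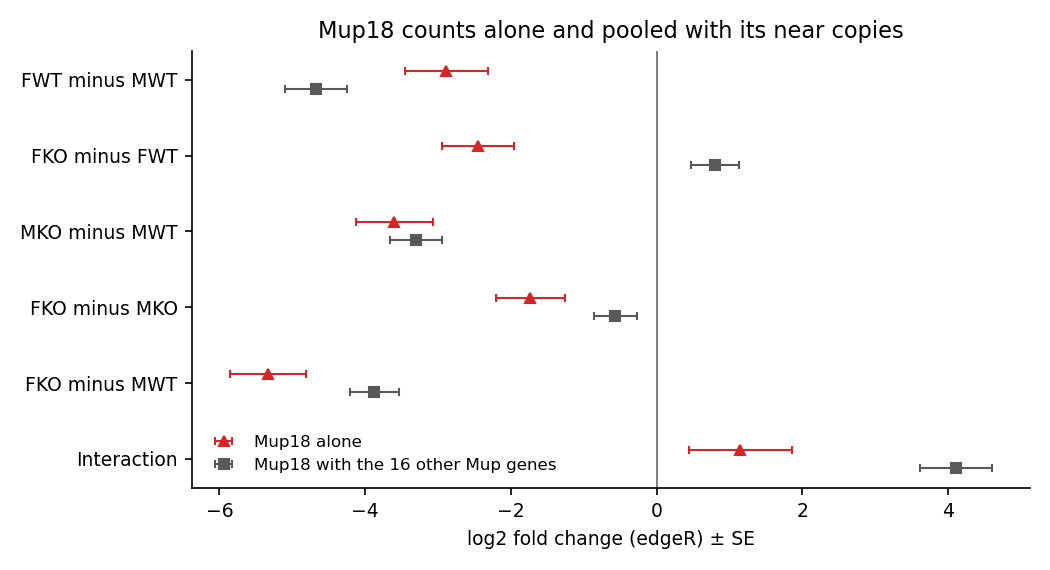
Log2 fold change ± SE (x axis, edgeR) of *Mup18* alone (red triangles) and of *Mup18* pooled with the 16 other *Mup* genes (grey squares) in each comparison (y axis). The 2 estimates lie on the same side of 0 except in FKO minus FWT, at -2.45 and 0.80, where the pool is mostly the other genes.

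Among the 16 other *Mup* genes, *Mup7* was the highest by mean CPM over all libraries, with group means of 4.61 CPM in FWT, 168 in FKO, 216 in MKO and 2391 in MWT. That rank is set by WT males: in FWT *Mup11* led, with 51.7 CPM. *Mup13* was the lowest, with at most 0.854 CPM in any group. The median of the group means over these 16 genes was 2.65 CPM in FWT, 5.64 in FKO, 6.95 in MKO and 59.9 in MWT.

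The make-up of the *Mup* counts within a library does not depend on the scaling between libraries. It may depend on how reads that map to several places were treated, which is not stated. Of the transcript windows, a median of 14.76% were unique for the 16 other *Mup* genes, against 97.06% for *Mup3*. The values below are shares of counts, and how far they hold for shares of *Mup* RNA was not tested. The 6 genes together took 93.6% ± 2.16 of all *Mup* counts in FWT, 66.7% ± 8.71 in MWT, 95.6% ± 1.12 in FKO and 92.3% ± 1.01 in MKO (SD, n = 3, 3, 5 and 4). The 3 WT males, at 64.5%, 76.3% and 59.3%, were below all other libraries. The difference was 25.6 percentage points for MKO minus MWT (two-sided exact permutation p = 0.0286, the smallest possible) and 28.9 for FKO minus MWT (exact permutation p = 0.0179, the smallest possible). FKO minus MKO was 3.29 points (exact permutation p = 0.0159) and FKO minus FWT 1.93 points (exact permutation p = 0.161). FWT minus MWT was 26.95 points, with an exact permutation p of 0.1, the smallest that 3 mice against 3 allow. Adjusted over the 5 comparisons, the exact permutation p values were 0.0476, 0.0446, 0.0446, 0.161 and 0.125 in the order given. As a share of all counts of the library, by contrast, the 6 genes took 0.338% ± 0.0860 in FWT, 1.11% ± 0.108 in MWT, 0.854% ± 0.252 in FKO and 0.691% ± 0.0348 in MKO (SD, n = 3, 3, 5 and 4).

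*Mup3* made up most of that share. It took 92.4% ± 2.58 of the *Mup* counts in FWT, 49.2% ± 5.66 in MWT, 88.7% ± 1.33 in FKO and 79.1% ± 2.38 in MKO (SD, n = 3, 3, 5 and 4). *Mup20* took 0.572% ± 0.260 in FWT, 15.1% ± 3.66 in MWT, 5.63% ± 0.768 in FKO and 11.4% ± 2.41 in MKO. ESR1KO males were above ESR1KO females in the share of *Mup20* in every mouse (difference 5.75 points, exact permutation p = 0.00794, unadjusted and the smallest possible). *Mup21* took at most 2.21% in any library and *Mup18* at most 0.946%.

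**Figure D5:**
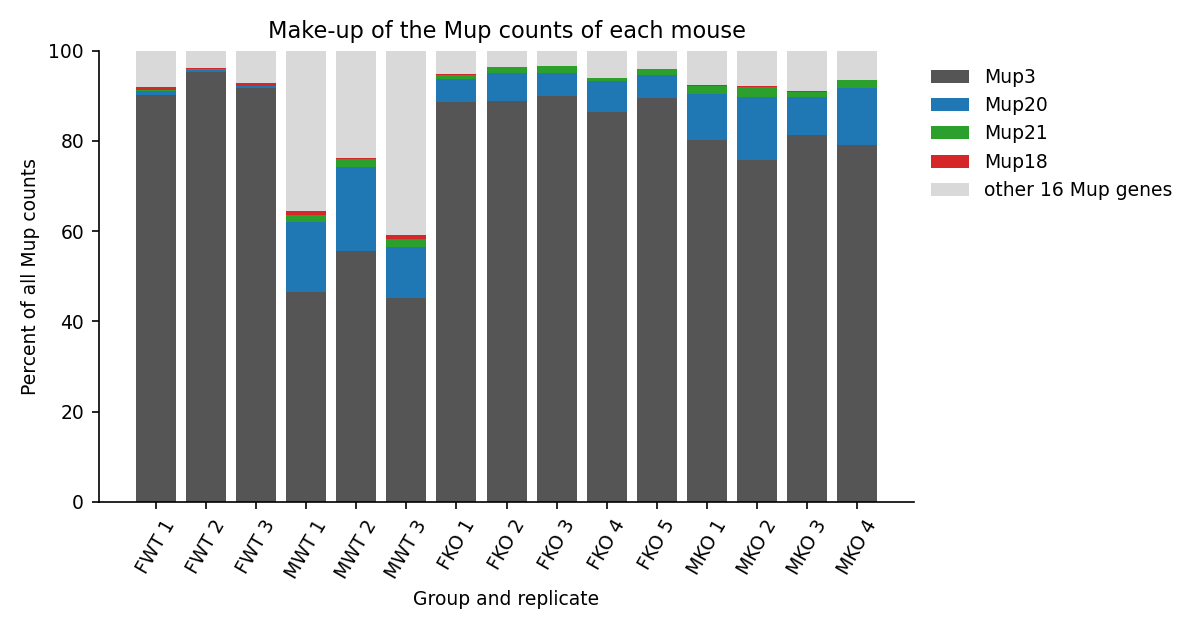
Each bar is 1 mouse (x axis, group and replicate) and shows how all of its *Mup* counts were divided (y axis, percent) among *Mup3*, *Mup20*, *Mup21*, *Mup18* and the 16 other *Mup* genes; *Mup4* and *Mup5* are too low to be seen. The 3 WT males are the mice with less than 80% on the 6 genes. The *Mup20* part is 0.407% to 0.872% in WT females and at most 6.74% in ESR1KO females. Bars show shares of counts, and how reads that map to several places were treated is not stated.

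Of 21 genes of growth hormone signalling and of factors that act on *Mup* transcription, all were tested. In FKO against FWT 4 of 21 passed an adjusted p of 0.05, all lower, against 5.71% of all tested genes. The median over the list was -0.23. The genes that passed were *Cux2*, the female-specific liver repressor of male-biased genes, at -3.32 ± 0.41, *Esr1* itself at -2.64 ± 0.25, *Prlr*, the prolactin receptor, at -0.92 ± 0.22 and *Stat5a*, a transducer of the growth hormone signal, at -0.84 ± 0.22 (edgeR adjusted p = 8.78e-05, 4.47e-06, 0.0253 and 0.0357). *Cux2* was at 45.5 ± 11.4 CPM in FWT, 4.44 ± 3.74 in FKO, 0.624 ± 0.194 in MWT and 0.519 ± 0.131 in MKO (SD, n = 3, 5, 3 and 4). In MKO against MWT 1 of 21 passed, against 1.42% of all tested genes, and it was *Esr1* at -1.62 ± 0.26 (edgeR adjusted p = 0.00445). In FWT against MWT 4 of 21 passed, all higher in females, against 4.87% of all tested genes.

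Of 12 other lipocalin genes, 11 were tested. *Ptgds*, the prostaglandin D synthase, and *Orm3*, an orosomucoid, passed as lower in FKO against FWT, at -2.54 ± 0.31 and -2.89 ± 0.43 (edgeR adjusted p = 6.64e-05 and 0.000623). *Obp2a*, an odorant-binding protein gene, passed as lower in MKO against MWT, at -3.98 ± 0.66 (edgeR adjusted p = 0.00489), from 1.23 ± 0.949 CPM in MWT to 0.0688 ± 0.0475 in MKO (SD, n = 3 and 4). Of 7 genes that flank the *Mup* cluster on chromosome 4, 6 were tested. By edgeR 0 of 6 passed in any of the 6 comparisons, where 0.272% to 5.71% of all tested genes passed. With 6 genes, a count of 0 is near those shares. At an unadjusted p under 0.05 there were 0 to 3. Their log2 fold changes lay between -0.15 and 0.54 in FKO against FWT and between -0.17 and 0.19 in MKO against MWT.

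Outside the *Mup* family, the genes most like each of the 4 expressed genes were sought among 11640 genes, by the root-mean-square difference of centred log2 CPM over the 15 libraries. This is a description, and the libraries share their groups. *Mup3* was most like *Slco1a1*, an organic anion transporter, at a difference of 0.18, against an SD of 0.59 of *Mup3* itself, followed by the UDP-glucuronosyltransferase genes *Ugt2b35* (0.24) and *Ugt2b1* (0.24). *Slco1a1* was at 374 CPM in FWT, 1026 in FKO, 968 in MWT and 699.8 in MKO on average. *Mup20*, with an SD of 2.49, was most like the noncoding RNA *AC121973.1* (0.79), the acetyltransferase gene *Nat8f5* (0.90) and the pseudogene *Gm4956* (0.96). *Mup21*, with an SD of 2.12, was most like *Nat8* (0.62), the noncoding RNA *Gm35696* (0.70) and *Gm4956* (0.73). *Mup18* had no near neighbour outside the *Mup* family: its closest gene, *Enho*, was at 1.45 against an SD of 2.05. Its near copies in sequence were left out of this ranking with the other *Mup* genes.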

How the data were processed

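Liver RNA of 15 mice was rRNA-depleted and sequenced in paired ends in 1 NovaSeq6000 lane, and some libraries, not named, were topped up. Reads were trimmed, aligned to GRCm38 with STAR and counted per gene with HT-Seq Count. The submitters' processing notes name Trimmomatic 0.36 and HTSeq 0.6.0, and the paper another HTSeq release. The deposited values are the authors' raw counts. Not given in the sources used here are the annotation release, strandedness and the treatment of multi-mapping reads. All values were whole numbers. Library totals of 27799061 to 78624766 counts set the precision, and 1 count is read against a limit of 3 counts over a group.

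Counts were analysed with edgeR 4.0.16 in R 4.3.3, with filterByExpr, TMM scaling, a quasi-likelihood fit with a mean per group, and Benjamini-Hochberg adjustment over 17655 genes. SEs are the log2 fold change divided by the square root of its F statistic, and 95% intervals use the prior plus residual degrees of freedom of the fit. Log2 CPM used a prior count of 2. DESeq2 1.42.0 was an alternative. Exact permutation tests and descriptions used Python 3.11.15 and SciPy 1.17.1. Sequences came from GENCODE M21 transcripts and a RefSeq promoter table. The edgeR step was tested on simulated data. Groups follow the labels, and nothing says whether mice of a group came from separate litters, so p-values measure the spread between these mice. All 6 genes are named; other *Mup* genes are named only as the highest and lowest by mean CPM, and genes of fixed lists only where they passed an adjusted p of 0.05 in a genotype comparison, at most 6 per list. *Mup6*, *Mup10*, *Mup11*, *Mup15*, *Mup16*, *Mup17*, *Mup19*, *Mup22*, *Mup-ps19* and *Mup-ps20* were named after their values were seen. So were the markers *Alb*, *Apoa1*, *Ttr*, *Tat*, *Cps1*, *Hnf4a*, *Krt19*, *Epcam*, *Sox9* and *Vsig4*. The members and lists were chosen with earlier results of these data known. Alternatives were other scalings, filters, thresholds, DESeq2, fits restricted to the groups compared, a block for replicate number, pooled *Mup18* counts and each mouse left out. Other experiments of the study were not analysed here.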

Additional observations from a re-analysis of the deposited data

Results flagged for a closer look

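The ESR1KO effect differed between females and males, by the interaction test of edgeR, for 3 of the 4 genes tested. Female minus male log2 effect was 6.26 for *Mup20*, with every ESR1KO female above every WT female and every ESR1KO male below every WT male. It was 5.56 for *Mup21*, with the same separation of all 15 mice. For *Mup3* it was 1.72, and there the effect in males did not pass on its own. Among 13 sets of 4 or 5 values in the ESR1KO groups, 0 had a mouse that stood apart by Dixon's ratio, where chance gives about 1 in 20.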

How the results depend on the processing

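Replicate numbers did not pair the mice: over 19 pairs with the same number the correlation of deviations lay between -0.195 and 0.14, with 1 above 0.1. With the replicate block the counts of genes called were 3, 2, 2, 0, 3 and 3 in the order FWT minus MWT, FKO minus FWT, MKO minus MWT, FKO minus MKO, FKO minus MWT and interaction, against 3, 3, 2, 0, 3 and 3 without it. Over 71 counts under other settings than leaving out a mouse, 68 stayed within 1.5 times. For counts this small the rule is loose, since a change from 3 to 2 or from 2 to 3 stays within it. The count for FKO minus MKO rose from 0 to 1 without the filter, at an unadjusted p and with DESeq2. Over all genes 67 of 33253, 87 of 17655 and 37 of 33253 were called at those settings. Leaving out each mouse in turn kept every count except that for MKO minus MWT (1 to 2) and FKO minus MWT (2 to 3). *Mup3* in FKO minus MWT changed sign, from -0.08 to a range of -0.28 to 0.0162, above 0 without FKO replicate 3 or MWT replicate 1. Of 284 log2 fold changes under the other settings 272 kept direction and call, and 1 had the other sign, the pool of *Mup18* with the 16 other *Mup* genes in FKO minus FWT (0.80), which those other genes dominate and which therefore does not test *Mup18* itself.

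The share of *Mup* counts on the 6 genes depended on the denominator and on the gene. As a percent of the library the differences were -0.774 for FWT minus MWT, 0.516 for FKO minus FWT, -0.421 for MKO minus MWT, 0.163 for FKO minus MKO and -0.258 for FKO minus MWT, so 3 of 5 changed sign. *Mup20* alone gave -14.5, 5.06, -3.69, -5.75 and -9.43, *Mup21* alone -1.62, 1.04, -0.0675, -0.513 and -0.581, and *Mup18* alone -0.178, -0.470, -0.551, -0.0971 and -0.649 points in that order. *Mup3* alone gave -3.70 for FKO minus FWT. *Mup5* alone gave -0.000833, -0.000341, -0.000371 and -0.000712 for the last 4, and *Mup4* alone 0.000313, -0.000112 and 0.000201 for the last 3. Leaving out a mouse gave 1.12 to 3.15 points for FKO minus FWT, where it passed only without FWT replicate 2, and 21.9 to 30.4 for MKO minus MWT, where the remaining 6 mice cannot give an exact permutation p under 0.05. In *Mup4* and *Mup5* depth limits what can be seen, and in *Mup-ps20* it does so in WT females, with 3 counts in all.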

Other observations

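The unprocessed pseudogene *Mup-ps20* (chr4:62012412-62014857, GRCm38), 1 of the annotated copies between *Mup5* and *Mup20*, was counted at 0.0230 ± 0.0231 CPM in FWT, 27.3 ± 12.4 in MWT, 1.36 ± 0.353 in FKO and 5.29 ± 1.22 in MKO (SD, n = 3, 3, 5 and 4). WT females had 3 counts in all and WT males 4078. It was lower in MKO than in MWT, by a fitted log2 difference of -2.38 ± 0.29 (edgeR adjusted p = 0.000441). It was also lower in FKO than in MKO, at -1.97 ± 0.28 (edgeR adjusted p = 0.00260), where none of the 4 tested coding genes described above was called.

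The 3 WT males had 7074, 3307 and 7067 CPM summed over the 16 other *Mup* genes, while *Mup20* was at 3090, 2577 and 1944 CPM in the same mice. Replicate 2 was the lowest mouse for the copies and replicate 3 for *Mup20*. For *Mup3*, *Mup21* and *Mup18* the lowest WT male was replicate 2, as for the copies, at 7756, 258 and 35.8 CPM.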
